A study of Rattus norvegicus with 35 samples.

Results

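The genes described here are the clock output genes Dbp, Tef and Hlf, the period genes Per1, Per2 and Per3, the nuclear receptor genes Nr1d1 and Nr1d2, and Ciart, followed through rat hippocampus under loss of ovarian hormone and 5 drug treatments. They were found by gene name in the deposited table of counts: all 9 of 9 were among its 15059 genes, and all 9 were among the 14411 genes that passed the filter on low counts. They had been chosen by their role in the clock and, for some, by a level below that of vehicle in every other group, so each level set against vehicle is given here as a description and no test is read from it. RNA was sequenced from hippocampus of female Sprague Dawley rats, 5 libraries in each of 7 groups, 35 in all. Surgery at 6 months of age was a sham operation in 1 group and ovariectomy in the other 6, and a washout of 2 weeks came before treatment. Ovariectomised rats then received a daily intraperitoneal injection for 7 days of vehicle, of 17β-estradiol at 0.16 mg/kg, of the selective estrogen receptor modulators tamoxifen at 3.23 mg/kg or raloxifene at 9.68 mg/kg, or of the aromatase inhibitors exemestane at 0.16 mg/kg or anastrozole at 4.03 mg/kg. Doses therefore differ between all drugs except estradiol and exemestane, which share 0.16 mg/kg, and what the sham group was injected with and the hour at which tissue was taken are not given in the sources used here. The design text counts 8 groups, of which 7 are analysed here.

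In the molecular clock the transcription factors Arntl and Clock bind E-boxes in DNA and switch on the period and cryptochrome genes, whose proteins return to the nucleus and repress Arntl and Clock. The same E-boxes drive Nr1d1 and Nr1d2, receptors that repress Arntl, and Dbp, Tef and Hlf, leucine zipper factors that bind D-boxes and carry the rhythm to downstream genes. Ciart encodes a further repressor of Arntl and Clock. Outside the suprachiasmatic nucleus, the pacemaker of the brain, these genes cycle over the day in many tissues, hippocampus included, and Per1 also answers quickly to glucocorticoids and to neuronal activity.

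Promoter sequences are shown because these genes were grouped as driven by E-boxes. RefSeq windows (build GRCr8, from 250 bases before to 50 bases after an annotated start) were matched by symbol for 8 of the 9 genes, with Nr1d1 at 2 starts; Hlf is named only. The motifs searched on both strands were the E-box CACGTG, its variant CACGTT, the D-boxes TTATGTAA and TTACGTAA, the receptor element cores TAGGTCA and TGGGTCA, and the cyclic AMP element TGACGTCA. The windows below, 5′ to 3′ on the strand of the gene with matches in capitals, lie at chr1:105312006-105312305 (Dbp, plus strand), chr2:186112197-186112496 (Ciart, minus), chr9:99496944-99497243 (Per2, minus), chr7:115206577-115206876 (Tef, plus), and chr10:84231763-84232062 and chr10:84229405-84229704 (Nr1d1, minus).
Dbp: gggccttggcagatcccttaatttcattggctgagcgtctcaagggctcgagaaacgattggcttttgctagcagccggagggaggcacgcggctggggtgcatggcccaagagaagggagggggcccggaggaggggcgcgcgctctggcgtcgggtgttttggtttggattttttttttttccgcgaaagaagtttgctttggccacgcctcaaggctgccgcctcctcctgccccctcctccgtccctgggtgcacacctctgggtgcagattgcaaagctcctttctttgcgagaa
Ciart: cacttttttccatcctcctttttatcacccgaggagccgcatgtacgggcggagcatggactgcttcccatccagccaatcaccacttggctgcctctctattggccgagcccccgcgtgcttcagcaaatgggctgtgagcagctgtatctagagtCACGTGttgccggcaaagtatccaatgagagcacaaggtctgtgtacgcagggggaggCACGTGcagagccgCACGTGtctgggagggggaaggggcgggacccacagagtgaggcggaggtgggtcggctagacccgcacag
Per2: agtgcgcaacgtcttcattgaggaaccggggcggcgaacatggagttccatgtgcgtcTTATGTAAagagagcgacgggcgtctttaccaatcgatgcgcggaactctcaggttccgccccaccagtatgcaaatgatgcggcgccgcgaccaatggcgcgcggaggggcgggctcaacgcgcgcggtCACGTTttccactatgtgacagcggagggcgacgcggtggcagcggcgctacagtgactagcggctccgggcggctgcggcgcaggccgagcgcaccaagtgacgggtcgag
Tef: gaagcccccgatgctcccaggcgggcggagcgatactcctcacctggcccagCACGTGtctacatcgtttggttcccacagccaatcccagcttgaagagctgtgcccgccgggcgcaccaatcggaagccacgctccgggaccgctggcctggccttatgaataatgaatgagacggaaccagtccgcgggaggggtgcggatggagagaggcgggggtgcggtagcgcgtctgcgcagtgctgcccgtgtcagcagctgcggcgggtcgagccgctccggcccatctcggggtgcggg
Nr1d1, upper start: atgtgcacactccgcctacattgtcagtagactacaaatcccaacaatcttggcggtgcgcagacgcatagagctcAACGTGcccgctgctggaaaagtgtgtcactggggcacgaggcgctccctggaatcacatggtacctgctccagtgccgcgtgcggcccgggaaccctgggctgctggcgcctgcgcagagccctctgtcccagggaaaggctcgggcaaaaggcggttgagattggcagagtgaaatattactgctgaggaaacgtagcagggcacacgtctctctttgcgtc
Nr1d1, lower start: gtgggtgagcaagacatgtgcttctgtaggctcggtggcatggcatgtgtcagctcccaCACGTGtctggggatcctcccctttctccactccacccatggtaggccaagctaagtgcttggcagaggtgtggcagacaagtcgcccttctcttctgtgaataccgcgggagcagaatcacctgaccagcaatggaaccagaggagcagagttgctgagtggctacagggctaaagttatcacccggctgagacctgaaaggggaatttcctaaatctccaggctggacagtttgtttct
Ciart carried 3 copies of the E-box, at 93, 35 and 21 bases upstream of its start, a number found in 0.0568% of all 33469 promoters in the table. Tef carried 1 copy at 198 bases upstream and Nr1d1 1 copy at 191 bases upstream of its lower start, against 6.42% of all promoters with at least 1. The variant stood 62 bases upstream of Per2 and, on the opposite strand, 174 bases upstream of the upper start of Nr1d1 (4.83% of all promoters). Per2 also held a D-box 192 bases upstream (1.01% of all promoters). The windows of Dbp, Per1, Per3 and Nr1d2 held none of these letters, and no member's window held a receptor element core (6.6% of all promoters) or the cyclic AMP element (1.83%), which says nothing of sites elsewhere.

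Library totals ran from 5578204 to 12093294 counts. A division into 2 kinds of library, absent from the labels, runs through all results: 20 of them (class A) gave 4.47 to 6.49% of their counts to Rn7sl1, a small non-coding RNA, and the other 15 (class B) gave 2.90 to 3.84%. Sham and estradiol held class A libraries only, raloxifene class B only, and the others a mix: 1 class B library of 5 in vehicle, 3 in tamoxifen, 4 in exemestane and 2 in anastrozole. Class and group therefore cannot be told apart between raloxifene and estradiol or raloxifene and sham, and values with class as a term in the model are given beside those without it. Markers of hippocampal neurons were present throughout, with a summed level of 2640 to 3690 CPM (counts scaled to library size with TMM factors) in every library except sham replicate 1, at 1760 CPM, where 5 measured thalamus and habenula markers summed to 268 CPM against 44.6 to 86.2 CPM in all others. The neuron sums were 2710 to 2990 CPM in raloxifene and 3170 to 3550 CPM in estradiol, without overlap, and 4 of the 7 markers were lower and 2 higher in class B than in class A. The share of mitochondrial genes was 8.33 to 11.5% for class A libraries against 11.3 to 14.9% for those of class B. Choroid plexus markers ranged from 2.67 to 3310 CPM and reached over 2100 CPM in at least 1 library of every group. The 3 measured markers of the suprachiasmatic nucleus and hypothalamus summed to 15.4 to 29.5 CPM, and Nms, Six6 and Prok2 were not among the genes of the table. In bulk tissue fewer cells of a type and less RNA per cell cannot be told apart.

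**Figure D1:**
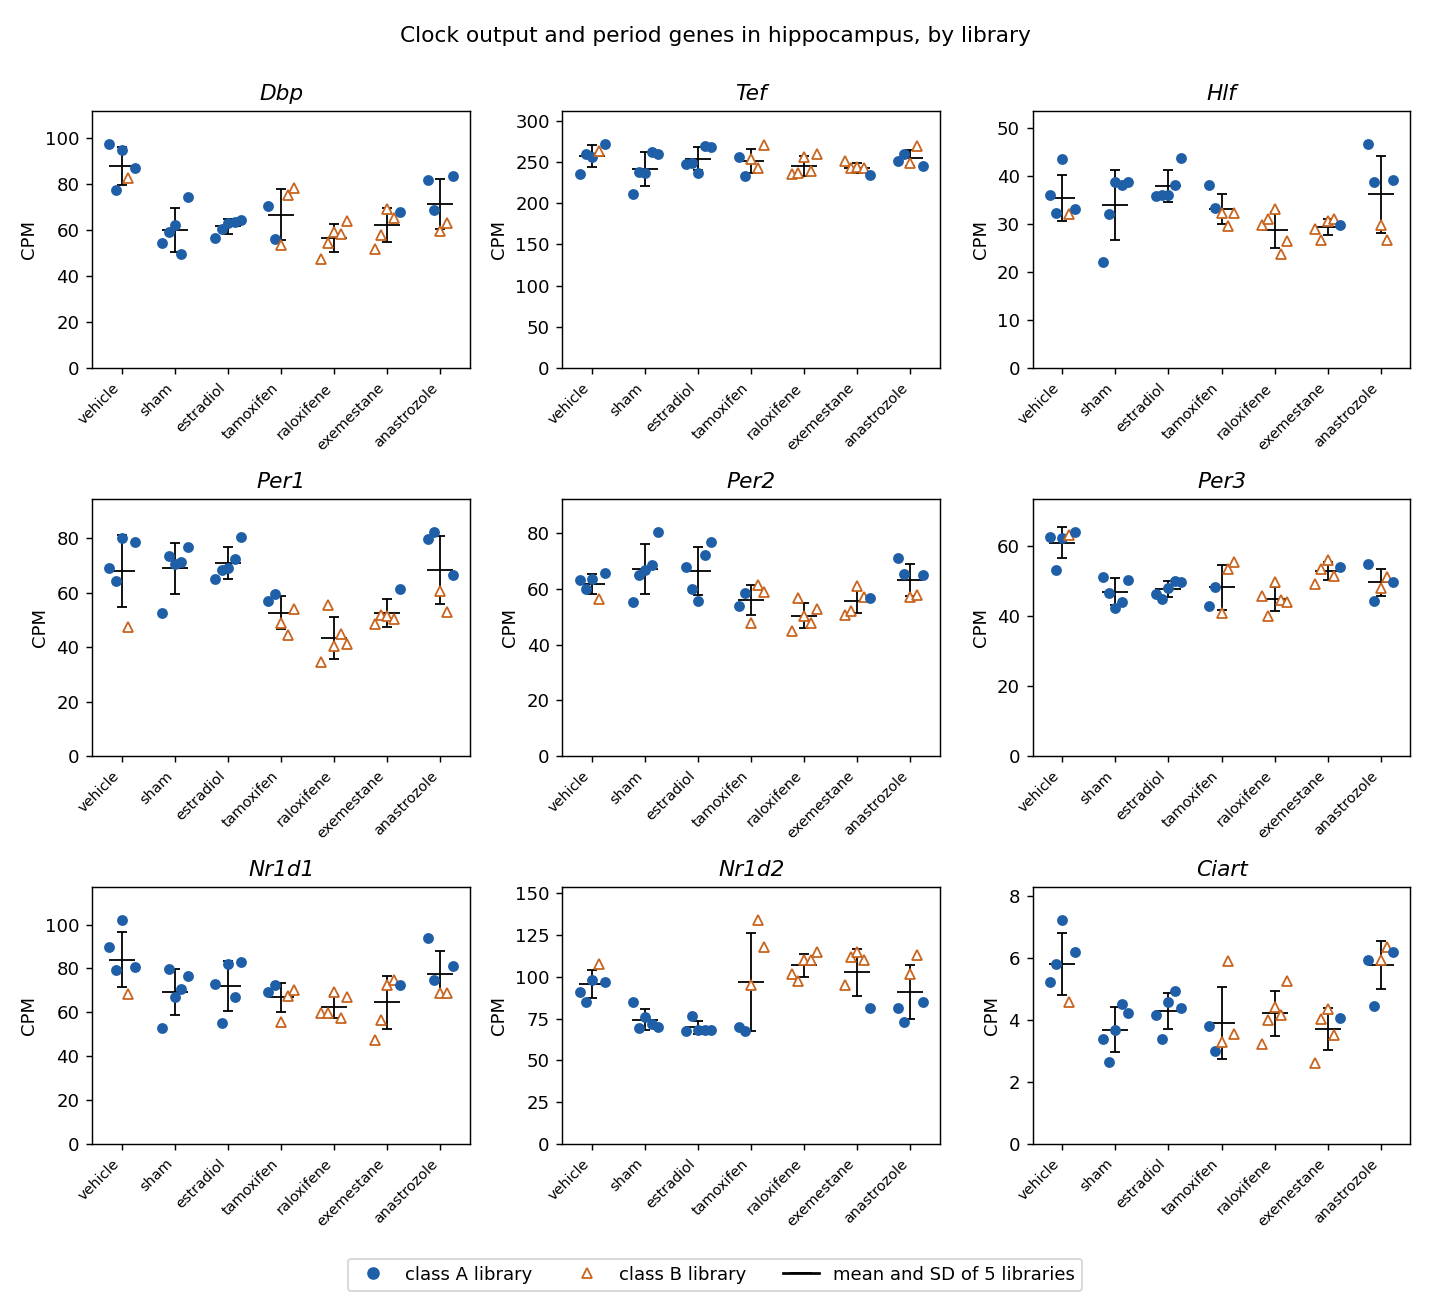
CPM of the 9 genes in every library (y axis, from 0) by group (x axis); filled circles are class A libraries, open triangles class B, and the bar gives mean and SD of 5 libraries. Dbp and Per3 are highest in vehicle, Tef is flat, and the class B libraries sit high for Nr1d2 and low for Per1.

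Dbp, the D-box activator whose mRNA cycles strongly in many tissues, stood highest in the vehicle group. Its 5 vehicle libraries held 97.2, 77.4, 95, 82.8 and 86.9 CPM. Sham held 54.6, 59.3, 62.2, 49.7 and 74.6 CPM. Estradiol was the tightest group, at 56.5, 60.6, 63.2, 63.5 and 64.5 CPM. All 10 of these sham and estradiol libraries lay below the lowest vehicle library. Raloxifene held 47.3, 54.2, 59.3, 58.2 and 63.8 CPM, and exemestane 51.7, 58.0, 69.2, 65.3 and 67.9 CPM. Those groups did not overlap vehicle either. Tamoxifen held 70.5, 56.1, 53.7, 75.1 and 78.4 CPM, its highest library inside the vehicle range. Anastrozole held 81.6, 68.9, 59.6, 63.1 and 83.5 CPM, with 2 libraries inside it. In all, 27 of the 30 other libraries lay below the lowest vehicle library and none above the highest.

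The mean of Dbp was 87.9 ± 8.26 CPM in vehicle (SD, n = 5 here and below), followed by 71.3 ± 10.8 in anastrozole, 66.8 ± 11.2 in tamoxifen, 62.4 ± 7.42 in exemestane, 61.7 ± 3.26 in estradiol, 60.1 ± 9.42 in sham and 56.6 ± 6.23 in raloxifene. In this order the gap between vehicle and anastrozole, 16.6 CPM, was above the pooled SD of the pair, 9.62 CPM, and every later neighbour differed by less than the pooled SD. The log2 fold of Dbp against vehicle (± SE) was -0.64 ± 0.11 in raloxifene, -0.55 ± 0.11 in sham, -0.51 ± 0.11 in estradiol, -0.49 ± 0.11 in exemestane, -0.39 ± 0.11 in tamoxifen and -0.30 ± 0.11 in anastrozole, all set against the same 5 vehicle libraries. With class in the model these folds ran from -0.57 in sham to -0.28 in anastrozole. Markers of oligodendrocytes, the myelin-forming cells, were high in vehicle as well: the 6 genes of that list summed to 5650 to 6920 CPM there, with group medians of 4850 to 5280 CPM elsewhere. Their sums lay wholly below vehicle in estradiol (4840 to 5160 CPM), raloxifene (4720 to 5570 CPM) and anastrozole (4660 to 5350 CPM). The highest sum of all, 7860 CPM, was in sham replicate 1, the library with low neuron markers. The other sham libraries held 4520 to 5370 CPM, all below the lowest vehicle library. The median log2 fold of the 6 markers against vehicle was -0.38 to -0.23 over the 6 groups, and their part in the levels of Dbp and Per3 was not tested.

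Per3, a period gene not needed for the core oscillation, was likewise highest in vehicle and varied less between libraries of a group. Vehicle libraries held 62.7, 53.1, 62.3, 63.3 and 64.0 CPM, the second standing below the rest. Sham held 51.3, 46.6, 42.3, 44.2 and 50.3 CPM, estradiol 46.3, 44.8, 48.2, 50 and 49.9 CPM, and raloxifene 45.9, 40.1, 49.7, 44.7 and 44.1 CPM. These 3 groups lay wholly below vehicle. Tamoxifen held 42.8, 48.5, 40.9, 53.6 and 55.5 CPM, exemestane 49.2, 53.5, 56.1, 51.5 and 54.2 CPM, and anastrozole 55.0, 44.5, 48.1, 51.3 and 49.9 CPM. They overlapped vehicle through its lowest library, and 24 of the 30 libraries outside vehicle were below that library. The log2 fold against vehicle ran from -0.44 ± 0.08 in raloxifene through -0.38 ± 0.08 in sham, -0.35 ± 0.08 in estradiol, -0.34 ± 0.08 in tamoxifen and -0.30 ± 0.08 in anastrozole to -0.21 ± 0.08 in exemestane, and from -0.48 to -0.23 with class in the model. When the authors' per-gene scaling, contained in their normalized table, was carried into the fit, the exemestane fold became 0.05 ± 0.11.

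Ciart, the E-box repressor with the 3 promoter E-boxes shown above, had the lowest counts of the set, 18 to 62 per library. Vehicle libraries held 5.23, 5.82, 7.22, 4.57 and 6.19 CPM. Anastrozole held 5.92, 4.44, 5.95, 6.36 and 6.19 CPM, of which 4 lie inside that range. Sham lay wholly below vehicle at 3.39, 2.65, 3.68, 4.51 and 4.22 CPM. So did exemestane at 2.62, 4.04, 4.34, 3.52 and 4.06 CPM. Estradiol held 4.15, 3.37, 4.59, 4.94 and 4.38 CPM, tamoxifen 3.79, 2.99, 3.29, 5.89 and 3.56 CPM, and raloxifene 3.24, 4.01, 4.41, 4.17 and 5.25 CPM. Each of these had 1 or 2 libraries inside the vehicle range. The log2 folds against vehicle were -0.65 ± 0.18 in sham, -0.64 ± 0.18 in exemestane, -0.57 ± 0.18 in tamoxifen, -0.46 ± 0.17 in raloxifene, -0.43 ± 0.18 in estradiol and -0.02 ± 0.17 in anastrozole. Anastrozole was thus close to vehicle for Ciart while its Dbp mean was 16.6 CPM lower.

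Nr1d1, one of the receptors that repress Arntl, had a mean of 83.9 ± 12.5 CPM in vehicle and 62.6 ± 5.17 to 77.5 ± 10.5 CPM elsewhere, with no group wholly below vehicle. Its log2 folds ran from -0.42 ± 0.12 in raloxifene to -0.12 ± 0.12 in anastrozole, all below 0. Tef, the third D-box factor beside Dbp and Hlf, was the flattest gene of the set, between 211 and 271 CPM in all 35 libraries, with folds of -0.09 to -0.01. Its biological coefficient of variation was 6.41%, the 5.8th percentile of all tested genes, against 7.95% for Per3, 12% for Dbp and 15.2% for all genes in common.

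Hlf, Per1 and Per2 did not share the pattern of Dbp. Hlf means ranged from 28.9 ± 3.77 CPM in raloxifene to 38.0 ± 3.39 CPM in estradiol with vehicle between them at 35.5 ± 4.78 CPM. Exemestane, at 26.8 to 31 CPM, was the only group wholly below the vehicle range of 32.1 to 43.6 CPM. Per1 was at 67.8 ± 13.3 CPM in vehicle, 68.9 ± 9.46 CPM in sham, 71.0 ± 5.87 CPM in estradiol and 68.4 ± 12.4 CPM in anastrozole. Per2 was at 61.8 ± 3.72 CPM in vehicle, and 3 libraries each of sham and estradiol were above the highest vehicle library.

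Nr1d2, the partner of Nr1d1, split the groups. Vehicle held 91.0, 85.1, 97.9, 108 and 96.9 CPM. Sham held 84.8, 69.7, 76.0, 72.0 and 69.9 CPM, and estradiol 67.4, 76.7, 68.5, 68.5 and 68.2 CPM, both wholly below vehicle. Raloxifene, in contrast, held 102, 97.5, 110, 110 and 115 CPM. Tamoxifen held 70.2, 67.5, 95, 134 and 118 CPM, exemestane 95.4, 112, 115, 110 and 81.4 CPM, and anastrozole 81.5, 73.0, 102, 113 and 85.2 CPM. The log2 folds against vehicle were -0.36 ± 0.13 in sham and -0.45 ± 0.13 in estradiol but 0.16 ± 0.13 in raloxifene. With class in the model all 6 were below 0, at -0.36 ± 0.08 in estradiol, -0.26 ± 0.08 in sham and -0.22 to -0.19 in the other 4.

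Counted over the set, the mean log2 level was below vehicle in all 6 groups for 5 members (Dbp, Tef, Per3, Nr1d1 and Ciart), as it was for 10.1% of tested genes. At an adjusted p under 0.05 (edgeR quasi-likelihood F-test, Benjamini-Hochberg over 14411 genes), 6 of 9 members were lower in raloxifene (Ciart, Dbp, Nr1d1, Per1, Per2 and Per3; 11.4% of all genes) and 2 in exemestane (Ciart and Dbp; 2.45%). The count was 0 in sham, estradiol, tamoxifen and anastrozole, where 0.0% of all genes were called lower, while an unadjusted p was under 0.05 for 5, 4, 5 and 2 members. DESeq2 called 2, 2, 1 and 0. Shares of all genes are not given for unadjusted p or for DESeq2, here or below. Those counts are therefore printed without a background and are not read as a result about the members. With class in the model Dbp and Per3 were called in sham (0.0208% of all genes), Dbp, Per3 and Nr1d2 in estradiol (0.0763%) and Per3 in raloxifene (0.00694%). Wholly below the vehicle range were Dbp, Per3, Nr1d2 and Ciart in sham (0.749% of all genes), Dbp, Per3 and Nr1d2 in estradiol (1.85%), Dbp and Per3 in raloxifene (7.02%), and Dbp, Hlf and Ciart in exemestane (1.46%). Because the members had been selected on these same levels, these counts are a description.

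**Figure D2:**
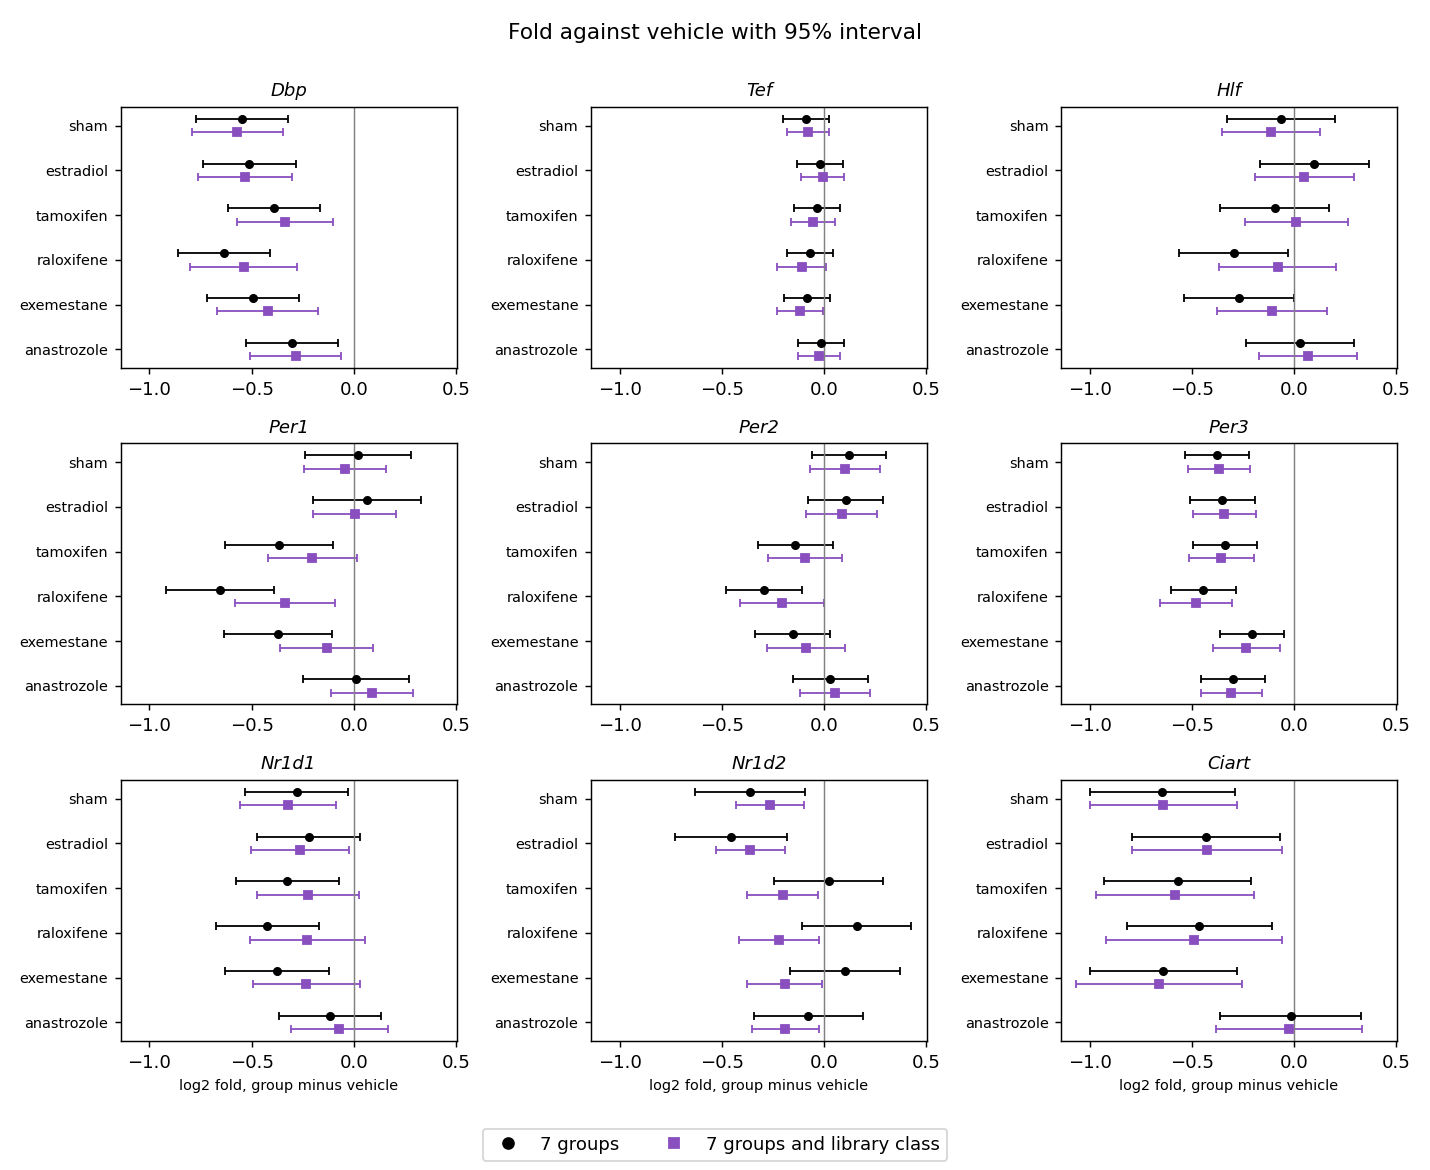
Log2 fold of each gene in the 6 groups minus vehicle (x axis) with its 95% interval, from the model with 7 groups (circles) and the model with class added (squares). The intervals of Dbp and Per3 lie below 0 in all 6 groups under both models, and the Nr1d2 values in tamoxifen, raloxifene and exemestane move from above 0 to below it when class is added.

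Differences among the 6 groups other than vehicle were tested. Some members had been chosen as low in every one of these groups, which bears on how far the groups can differ. The test is therefore not independent of that choice, least of all where a member was not called. Per1 (adjusted p = 0.000457), Nr1d2 (0.00155), Per2 (0.0018) and Ciart (0.0234) were called for any difference among sham and the 5 drug groups in edgeR, 4 of 9 members, against 38.1% of all tested genes. Dbp (adjusted p = 0.141) and Per3 (0.163), both highest in vehicle, were not called, nor were Hlf (0.0701), Nr1d1 (0.294) and Tef (0.691). With class in the model 0 members were called in edgeR (0.0208% of all genes), and Ciart and Per1 had an unadjusted p under 0.05. Ciart, the member whose call rests on the anastrozole group, had an adjusted p of 0.0557 to 0.0705 when anastrozole replicate 1, 3, 4 or 5 was left out.

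Per1, the period gene that hormones and activity induce quickly, gave the largest difference from estradiol. Estradiol libraries held 65.1, 68.2, 69.0, 72.2 and 80.5 CPM. Raloxifene libraries held 34.5, 55.5, 40.4, 44.7 and 41.1 CPM, all lower. Exemestane held 48.3, 51.6, 51.3, 50.2 and 61.3 CPM, and tamoxifen 56.8, 59.4, 48.7, 44.6 and 53.8 CPM, likewise without overlap. The share of all genes that do not overlap estradiol was not counted, here or for the members below. Of all genes, 44.6% were called against estradiol in raloxifene, 36.8% in exemestane and 14.2% in tamoxifen. Anastrozole held 79.8, 82.1, 60.6, 53.0 and 66.4 CPM and straddled estradiol. Per1 fell by 0.72 ± 0.13 on the log2 scale in raloxifene (95% interval -0.99 to -0.45, adjusted p = 0.000362), by 0.43 ± 0.13 in exemestane (adjusted p = 0.0108) and by 0.43 ± 0.13 in tamoxifen (adjusted p = 0.032). In anastrozole the fold was -0.05 ± 0.13 (95% interval -0.32 to 0.21). The tamoxifen call was lost without estradiol replicate 1, 4 or 5 or tamoxifen replicate 3, 4 or 5, with folds of -0.48 to -0.37 over all libraries left out in turn.

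Nr1d2 moved the other way. All raloxifene and exemestane libraries were above the highest estradiol library, 76.7 CPM. The gene was higher than in estradiol by 0.62 ± 0.13 in raloxifene (adjusted p = 0.000767), 0.56 ± 0.13 in exemestane (0.00319) and 0.48 ± 0.14 in tamoxifen (0.0274), and the anastrozole difference of 0.38 ± 0.13 was not called (adjusted p = 0.6). In tamoxifen the 3 class B libraries held 95 to 134 CPM and the 2 class A libraries 67.5 and 70.2 CPM, inside the estradiol range. The tamoxifen call was lost without estradiol replicate 1, 3, 4 or 5 or tamoxifen replicate 3, 4 or 5, with folds of 0.34 to 0.57 over all libraries left out in turn.

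Per2, which held the D-box in the window shown above, had estradiol libraries at 67.8, 60.2, 55.7, 72.1 and 77.0 CPM. Its raloxifene libraries held 44.9, 56.7, 50.2, 47.8 and 52.8 CPM and its exemestane libraries 50.7, 52.1, 61.1, 57.2 and 56.7 CPM. Raloxifene overlapped estradiol by 1 library. Per2 fell by 0.40 ± 0.09 in raloxifene (adjusted p = 0.000993) and by 0.26 ± 0.09 in exemestane (0.0251), and its tamoxifen difference of -0.25 ± 0.09 was not called (0.0609). The exemestane call was lost without estradiol replicate 4 or 5 or exemestane replicate 1 or 2. Hlf, the D-box factor beside Dbp and Tef, held 35.9, 36.1, 36.0, 38.1 and 43.8 CPM in estradiol. Its raloxifene libraries held 29.8, 31.1, 33.2, 23.8 and 26.5 CPM and its exemestane libraries 29, 26.8, 30.6, 31 and 29.8 CPM, all below. Hlf fell by 0.40 ± 0.13 in raloxifene (adjusted p = 0.0155) and by 0.37 ± 0.13 in exemestane (0.0291). Without estradiol replicate 5, its highest library there, those values were -0.33 and -0.30 with adjusted p of 0.0603 and 0.0972. The raloxifene call was also lost without raloxifene replicate 4 (0.058) and the exemestane call without exemestane replicate 1 (0.0587) or 2 (0.0765).

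In the 8 comparisons without vehicle, 72 tests of a member gave 10 calls in edgeR: 2 in tamoxifen against estradiol (14.2% of all genes called), 4 in raloxifene against estradiol (44.6%) and 4 in exemestane against estradiol (36.8%), the last at the same dose per kg and the others at different doses, and all set against the same 5 estradiol libraries. The share of members called was thus near the share of all genes for raloxifene and exemestane. No member was called for estradiol against sham (0.0% of all genes), anastrozole against estradiol (0.00694%), tamoxifen against raloxifene, exemestane against anastrozole or raloxifene against exemestane (0.0% each), where an unadjusted p was under 0.05 for 0, 2, 2, 5 and 2 members and DESeq2 called 0. Between estradiol and sham the 9 log2 folds ran from -0.09 to 0.21 with 95% bounds of -0.37 and 0.58. Without sham replicate 1, whose markers stand apart, there were 11 calls in the 8 comparisons. Without estradiol replicate 5 there were 5. With class in the model 0 of 72 tests were called in edgeR, in comparisons where 0.0 to 0.0278% of all genes were (2 genes, 0.0139%, in exemestane against estradiol), and 7 had an unadjusted p under 0.05. Per1 against estradiol then stood at -0.34 ± 0.13 in raloxifene, -0.21 ± 0.11 in tamoxifen and -0.14 ± 0.12 in exemestane, and Nr1d2 at 0.14 ± 0.10, 0.16 ± 0.09 and 0.17 ± 0.10.

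**Figure D3:**
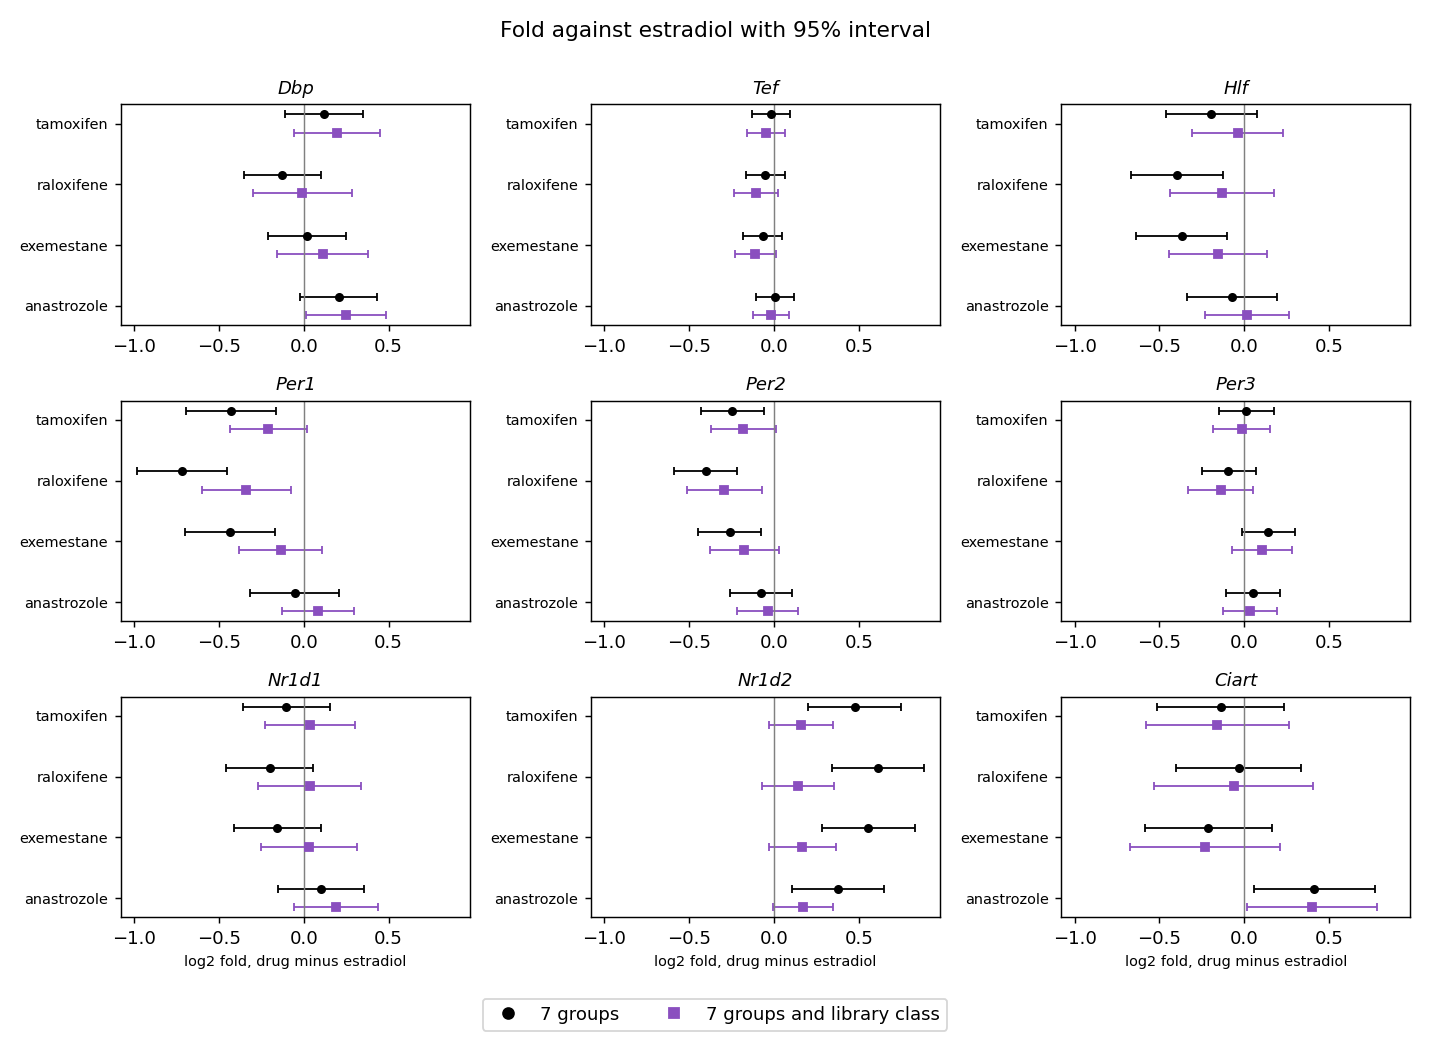
Log2 fold of each gene in the 4 drug groups minus estradiol (x axis) with its 95% interval, from the model with 7 groups (circles) and the model with class added (squares). Without class Per1, Per2 and Hlf lie below 0 and Nr1d2 above 0 in raloxifene and exemestane. Once class is added, the intervals of all these genes span 0 in exemestane, as do those of Nr1d2 and Hlf in raloxifene.

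The difference between classes was itself tested with group in the model. Per1 (-0.38 ± 0.08, adjusted p = 0.000156), Hlf (-0.27 ± 0.09, 0.0184) and Nr1d1 (-0.24 ± 0.09, 0.0328) were lower in class B and Nr1d2 (0.48 ± 0.07, 1.48e-07) was higher, 4 of 9 members in edgeR against 51.9% of all tested genes. In all 4 groups that hold both classes, every class B library was above every class A library for Nr1d2 and below every class A library for Per1. The share of all genes parted in this way was not counted. Dbp (-0.12 ± 0.09), Per2 (-0.11 ± 0.07), Per3 (0.05 ± 0.06), Tef (0.05 ± 0.04) and Ciart (0.03 ± 0.14) were not called. Neuron markers and the mitochondrial share also differ with class, and their part in these differences was not tested. Hlf lost its call without anastrozole replicate 3 or 4, and Nr1d1 without anastrozole replicate 1 or 3, exemestane replicate 2 or 5, or vehicle replicate 3 or 4. Of the 4 genes that differed from estradiol in raloxifene and exemestane, Per1, Hlf and Nr1d2 were thus also called between classes and Per2 was not. Within class A alone Dbp was at -0.57 ± 0.10 in sham and -0.53 ± 0.10 in estradiol against 4 vehicle libraries. Class B holds 1 vehicle library, at 82.8 CPM of Dbp, so the values there, -0.57 ± 0.18 in raloxifene and -0.45 ± 0.19 in exemestane, rest on a lone vehicle library assumed to vary like the other groups.

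Within groups, Dbp varied with Nr1d2 and Nr1d1 in class B libraries by Pearson r, while no relation was called by Spearman rho. After each group's mean was removed, Dbp deviations in the 14 class B libraries of groups with at least 2 followed those of Nr1d2 (Pearson r = 0.84, adjusted permutation p = 0.0471; Spearman rho = 0.71, 0.121) and Nr1d1 (r = 0.79, 0.0471; rho = 0.82, 0.121). Per2 (r = 0.81, 0.0604; rho = 0.76, 0.121), Ciart (r = 0.72, 0.145) and Per3 (r = 0.70, 0.164) gave values of similar size that were not called, and Arntl gave r = -0.62 (0.145), which became -0.21 without the 2 libraries farthest from the median of Dbp. The p-values are two-sided, from 100000 permutations within groups, adjusted over 18 relations. Without those 2 libraries r was 0.77 for Nr1d2, 0.86 for Nr1d1 and 0.62 for Per2. In the 19 class A libraries the 9 relations ran from r = 0.10 for Tef to 0.46 for Hlf, none was called (Nr1d1 0.39, Nr1d2 0.13, Per2 0.36), and the difference between classes was not tested. The values paired in a point share the depth and class of their library, and the hour of collection is not known for any library.

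**Figure D4:**
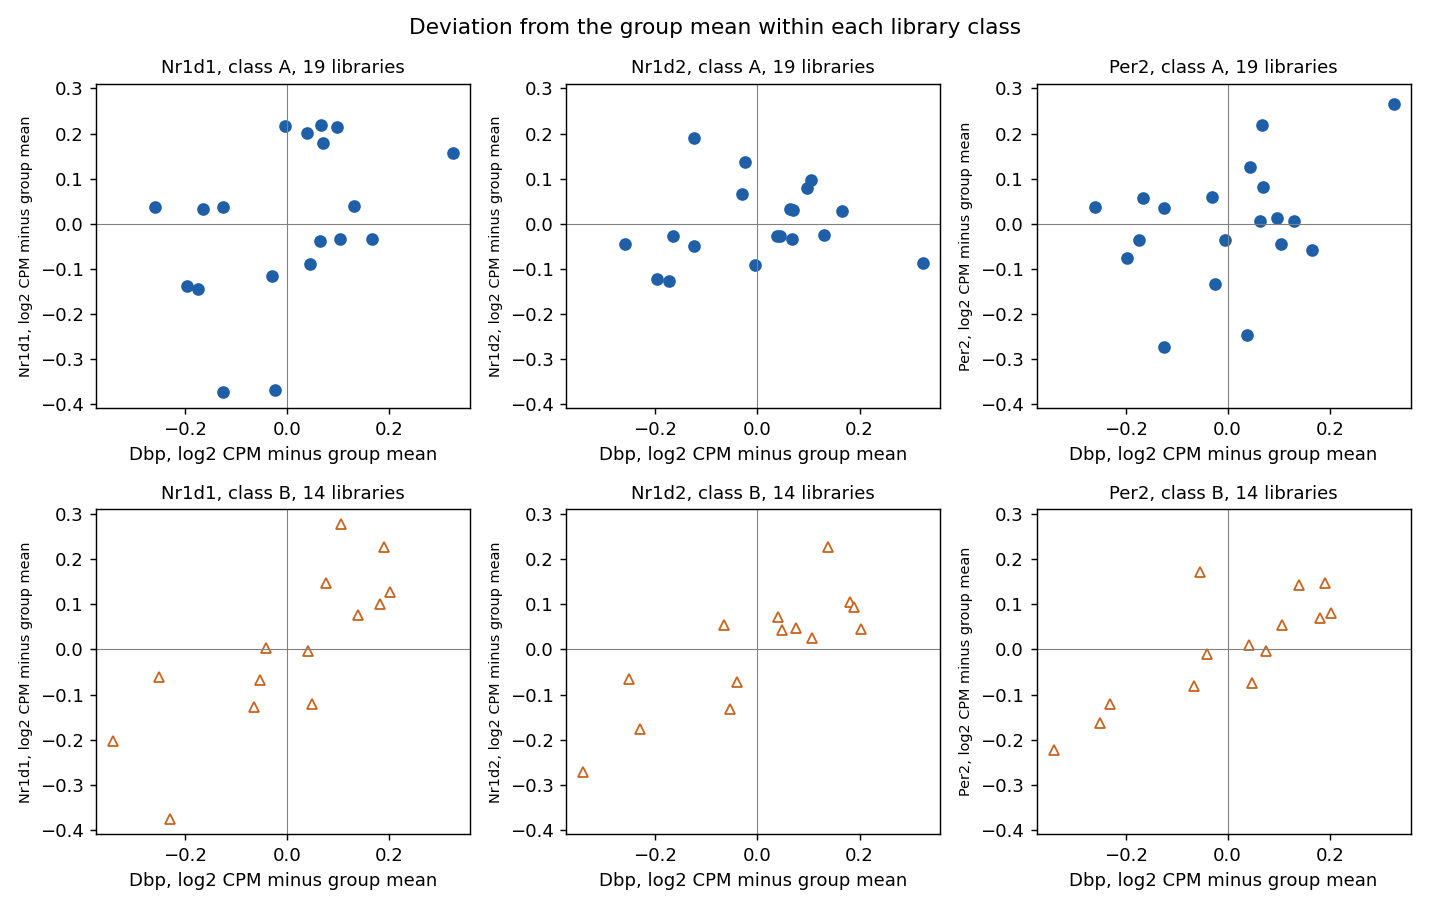
Deviation of log2 CPM from the group mean for Dbp (x axis) and for Nr1d1, Nr1d2 and Per2 (y axis), one point a library, class A in the upper row (19 libraries) and class B in the lower (14 libraries). Points follow a rising line in class B, with r of 0.79, 0.84 and 0.81, and scatter more in class A, with r of 0.39, 0.13 and 0.36.

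As a description over all 35 libraries with group and class removed, the genes outside the set closest to Dbp among 12601 were Crh, the stress peptide corticotropin-releasing hormone (r = 0.657, at a mean of 1.21 CPM), Ralgapa2 (0.635), Zfyve26 (0.631), Utp18 (0.63) and Zfp322a (0.621), and the farthest were Ammecr1l (-0.684), Lrp8 (-0.63), RT1-Db1 (-0.627), Ap1g2 (-0.616) and Fam117a (-0.595). Per2 ranked 12, Nr1d1 15, Per3 24, Nr1d2 26 and Ciart 82 in likeness to Dbp, while Hlf ranked 805, Per1 1432 and Tef 2586. Closest to Per3 were Fam161b (0.675), Sting1 (0.667), Zfyve26 (0.607), Lime1 (0.605) and Tmem219 (0.605), and farthest were Plekhd1 (-0.71), Get3 (-0.631), Mrpl37 (-0.571), St3gal5 (-0.552) and Palm3 (-0.551). Nr1d2 ranked 11, Dbp 13, Nr1d1 131, Per2 461 and Ciart 496 for Per3, while Tef (-0.02), Hlf (-0.03) and Per1 (-0.09) had values just below 0 and ranked 6715, 7046 and 8391.

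Of 19 other clock genes listed, 18 were in the table. Arntl, the activator that Nr1d1 and Nr1d2 repress, held 31.9, 27.4, 27.9, 27.4 and 26.5 CPM in vehicle and 28.8, 32.4, 38.7, 35.7 and 34.3 CPM in sham. Its log2 fold against vehicle was 0.27 ± 0.08 in sham and 0.06 to 0.21 in the others. Cry1, a repressor partner of the period proteins, likewise lay above vehicle, by 0.06 to 0.24. Nfil3, which competes with Dbp at D-boxes, stood 0.48 ± 0.18 above vehicle in sham and 0.46 ± 0.18 in estradiol. Against vehicle, 5 of the 18 were called in raloxifene (24.8% of all genes), among them Clock (0.34) and Ppp1cb (0.63) higher and Cry2 (-0.20) and Csnk1e (-0.21) lower. In the other 5 groups 0 of 90 tests were called in edgeR, 14 had an unadjusted p under 0.05, and DESeq2 called 2.

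Against estradiol, 5 of these 18 genes were called in tamoxifen (14.2% of all genes), 8 in raloxifene (44.6%) and 6 in exemestane (36.8%), shares of the list that are near those of all genes in the latter 2. Clock, the partner of Arntl, rose by 0.34, 0.50 and 0.44, and Nfil3 fell by 0.74, 0.50 and 0.70. Ppp1cb, a phosphatase subunit, rose in all 3, and the kinase Csnk1e fell in all 3. Cry2 fell in raloxifene and exemestane, Csnk1d and Bhlhe41 in raloxifene. Between classes 8 of 18 were called, against 51.9% of all genes, among them Clock at 0.35 and Ppp1cb at 0.71 higher in class B and Nfil3 at -0.39 lower. With class in the model 0 of 144 tests of these genes in the 8 comparisons without vehicle were called in edgeR, against 19 without class, and 14 had an unadjusted p under 0.05.

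Genes that answer to glucocorticoids and to neuronal activity are given beside Per1, which is on the first of these lists. The 14 glucocorticoid-responsive genes summed to 566 to 716 CPM in estradiol, 478 to 595 in tamoxifen, 458 to 612 in raloxifene and 491 to 573 in exemestane. Against estradiol 3, 5 and 4 of them fell in tamoxifen, raloxifene and exemestane and none rose, with Per1, Ddit4 and Zbtb16 in each, where 4.6%, 22.1% and 17.9% of all genes were called lower. Once class was in the model, 0 of the 14 were called in each comparison in edgeR, and an unadjusted p was under 0.05 for 1, 1 and 0 of them. The 18 immediate-early genes summed to 564 to 667 CPM in estradiol, 445 to 501 in tamoxifen, 387 to 687 in raloxifene and 380 to 533 in exemestane, and 1, 6 and 7 of them fell while 1 rose in raloxifene, against the same shares of all genes called lower. Of the 18, 0 were called in each in edgeR with class in the model, and an unadjusted p was under 0.05 for 0, 0 and 2. In class B 6 of the 14 and 7 of the 18 were lower than in class A and 1 of the 18 was higher (26.3% of all genes lower and 25.5% higher), and their part in the Per1 result was not tested. Sham replicate 1 was low for Per1 (52.6 CPM) and Hlf (22.1 CPM), and without it the sham folds against vehicle were 0.11 for Per1 and 0.06 for Hlf, -0.51 for Dbp and -0.41 for Per3.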

How the data were processed

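RNA was measured in hippocampus by stranded poly(A) sequencing of 100 bp paired ends, per the labels. The authors deposited a table of estimated counts, in whole numbers without any scaling. The second table they deposited holds a normalized signal, in which each count had been divided by a library size and a term of its own for every gene and library. Salmon and DESeq2 are named in the submitters' processing notes without versions, and the aligner and genome build are not given in the sources used here. Groups came from the treatment label, and replicate numbers only name libraries. The labels do not tie each library to 1 animal, so p-values measure the spread between these libraries.

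Counts were fitted in edgeR 4.0.16 (R 4.3.3) with TMM scaling, the filterByExpr filter by group (14411 of 15059 genes kept), and a robust quasi-likelihood F-test on 35 libraries in 7 groups, adjusted by Benjamini-Hochberg over all 14411 genes with a threshold of 0.05. Library class is the sign of the first component of the ratio between the deposited tables, over 14326 genes (72.3% of the variance against 1.694% for the second); it was defined in earlier work on these data, and what sets it is not known. Correlations used log2 CPM with a prior count of 2 and 100000 permutations within groups (Python 3.11.15, scipy 1.17.1, numpy 2.4.6), and plots used matplotlib 3.10.9. The fit was tested on simulated data. The members and lists were chosen with earlier results of these data known. Genes named are the 9 members, listed clock genes or list members past the threshold, Rn7sl1, and for Dbp and for Per3 the 5 genes outside the set with the highest and the 5 with the lowest correlation of residuals at a mean of at least 1 CPM. Alternatives were DESeq2 1.42.0, its size factors in edgeR, no filter on low counts, class as a term, the authors' per-gene factors, only the compared groups, Rn7sl1 and mitochondrial genes left out, each library left out, and, chosen after seeing the data, each class alone. Values of 1 gene on the list of other clock genes are not reported here, though it is among the genes counted.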

Additional observations from a re-analysis of the deposited data

Results flagged for a closer look

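In 8 of 63 groups of 5 libraries, 1 library stood away from the other 4 by more than 0.71 of the range, which chance does in about 1 group in 20. Per3 was 53.1 CPM in vehicle replicate 2 against 62.3 to 64.0 CPM in the other vehicle libraries. Per1 was 52.6 CPM in sham replicate 1, the library with low neuron markers, against 70.4 to 76.9 CPM, and 61.3 CPM in exemestane replicate 5, the only class A library of its group, against 48.3 to 51.6 CPM. Hlf was 43.8 CPM in estradiol replicate 5 against 35.9 to 38.1 CPM. Nr1d1 was 55.6 CPM in tamoxifen replicate 3 against 67.6 to 72.4 CPM, and Nr1d2 was 76.7 CPM in estradiol replicate 2 against 67.4 to 68.5 CPM. Ciart was 5.89 CPM in tamoxifen replicate 4 against 2.99 to 3.79 CPM, and 4.44 CPM in anastrozole replicate 2 against 5.92 to 6.36 CPM.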

How the results depend on the processing

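Members differing among the 6 groups other than vehicle, 4, became 0 with class as a term and were 3 to 5 with each library left out. Within 1 class the test covered fewer groups and gave 0. Class A allowed sham, estradiol, tamoxifen and anastrozole, and class B tamoxifen, raloxifene, exemestane and anastrozole. Neither sets estradiol beside raloxifene or exemestane, so neither is the same test as over 6 groups. The 10 member calls in the 8 comparisons without vehicle became 0 with class as a term. They were 6 with the authors' per-gene factors, in Nr1d2, Per1, Per2 and Per3, without Hlf. With those factors 1.61% of all genes were called against estradiol in tamoxifen, 21.8% in raloxifene and 16.1% in exemestane. With each library left out there were 5 (without estradiol replicate 5) to 14 (without anastrozole replicate 4). Each class alone allows only 3 of the 8 comparisons, with 0 calls. Of these, only tamoxifen against estradiol, in class A, had calls in the fit of all libraries. Class B holds no estradiol library. The 4 members differing between classes were 2 (without anastrozole replicate 3) to 4.

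Members lower than vehicle, 8 in all, became 15 in DESeq2 and 3 with the authors' factors, in Dbp and Per1. With each vehicle library left out they were 3 (without vehicle replicate 3) to 10. They were 5 without vehicle replicate 1 or 2 and 4 without vehicle replicate 5. Class A alone allows only sham, estradiol, tamoxifen and anastrozole against vehicle. Those had 0 calls in the fit of all libraries and 1, Nr1d2 in estradiol, in class A. Class B alone rests on 1 vehicle library, as do its counts below. For sham, 0 became 2 in DESeq2 and 2 with class, and 0 to 1 with each library left out (1 without sham replicate 1 or 5). For estradiol, 0 became 2 in DESeq2, 3 with class, 1 with the authors' factors, 3 with only the compared groups and 1 in class A alone. For tamoxifen, 0 became 1 in DESeq2, and 0 to 1 with each library left out (1 without tamoxifen replicate 2). For raloxifene, 6 became 1 with class, 2 with the authors' factors and 0 in class B alone, and was 3 (without vehicle replicate 3) to 6. For exemestane, 2 became 4 in DESeq2 and 0 with class, the authors' factors, only the compared groups or class B alone, and was 0 (without exemestane replicate 1, 2, 3 or 4 or vehicle replicate 1, 2, 3 or 5) to 5 (without exemestane replicate 5), with 4 without vehicle replicate 4. With the authors' factors, 0.00694% of all genes were called lower in estradiol, 2.0% in raloxifene and 0.347% in exemestane. Fewer libraries enter the fits of 1 class. For the other changes the cause was not tested.

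The fold of Nr1d2 between tamoxifen and estradiol turned to -0.02 in class A alone. Between classes the fold of Dbp turned to 0.062 with the authors' factors, and that of Ciart ran from -0.048 (without tamoxifen replicate 4) to 0.145 (without vehicle replicate 4). The number of correlations called was the same with a prior count of 0.5 and with DESeq2 size factors. Ciart, at 18 to 62 counts per library, is the member whose precision depth limits most. No paired analysis was possible because the titles carry no replicate numbers shared between groups.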
